A study of Caenorhabditis elegans with 12 samples.

Results

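Genes whose RNA was highest in embryos lacking both MET-2 and SET-25 were selected from a table of gene counts. Some of them were also above the wild type, to a lesser degree, in another mutant group, as given below. Levels are given as CPM, the count of a gene scaled to the total count of its library, and a gene had to average at least 0.5 CPM in the 3 double mutant libraries. Its lowest double mutant value also had to be at least 1.5 times the highest value among the 9 other libraries. Of 27904 genes in the table, 71 met this rule. That is 0.605% of the 11733 genes that reached 0.5 CPM in the double mutant. All 12 libraries were used to choose these genes, so their height in the double mutant is given as a description. Calls of that height are counted once, beside the share over all genes, and nothing is read from them.

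The study sequenced total RNA of early embryos of Caenorhabditis elegans after removal of ribosomal RNA. The wild type was the N2 strain (Bristol). Mutants carried the allele n4256 of met-2, the allele n5021 of set-25, or both of these alleles together in the double mutant, and both genes lie on chromosome III. Each genotype had 3 libraries, called a, b and c here, from worms grown at 20 °C. Embryos of all genotypes were taken before the bean stage, at about 1 to 300 cells, and each library is a pool of many embryos. The labels speak of 2 independent biological replicates, so part of the spread between the 3 libraries of a genotype may be technical.

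MET-2 and SET-25 add methyl groups to lysine 9 of histone H3 (H3K9). MET-2 makes the mono- and dimethylated forms, and SET-25 can carry the mark to the trimethylated form. In worm chromosomes these marks lie mostly over repeats, pseudogenes and silent genes on the outer parts of the autosomes, called arms, which are tethered to the nuclear envelope. Embryos without both enzymes have no detectable H3K9 methylation, whereas embryos lacking one of them keep part of it. In bulk RNA, fewer cells making a transcript and less of it per cell cannot be told apart.

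The labels were checked on the 2 mutated genes. RNA of set-25 stood at 42.3 to 43.2 CPM in the set-25 mutant, at 53.1 to 56.2 CPM in the double mutant and at 165 to 195 CPM in N2. RNA of met-2 stood at 46.0 to 50.1 CPM in the double mutant and at 286 to 299 CPM in N2. The libraries labelled met-2 held 232, 298 and 344 CPM of it in a, b and c, close to N2 and not to the double mutant, so the name of this group is taken only as a label below. Total counts were 41033729 to 52683919 in N2, 42943190 to 46833848 in the double mutant, 23543963 to 25667207 in the labelled met-2 group and 16929810 to 23924919 in set-25. The groups also differed in markers of embryo stage, and the part of this in the results below was not tested. A list of 12 early embryo markers summed to 1736 to 2250 CPM in N2, 1562 to 1732 in the double mutant, 720 to 888 in the labelled met-2 group and 654 to 899 in set-25, with none at 0. The sum of 4 muscle genes was 67.2 to 162 CPM in N2, 447 to 474 in the double mutant, 496 to 1118 in the labelled met-2 group and 80.2 to 539.6 in set-25. The sum of 6 markers of late embryo and larval epidermis was 289 to 534 CPM in N2, 1012 to 1149.8 in the double mutant, 947 to 1459 in the labelled met-2 group and 266 to 909.9 in set-25, again with none at 0. Neuron markers (5 genes) followed another order: N2 libraries summed to 210 to 252 CPM, double mutant libraries to 211 to 225. Their sums were only 104 to 158 CPM for the labelled met-2 group and 88.5 to 114 for set-25. Pharynx markers (3 genes) reached 67.3 to 169 CPM for the labelled met-2 group, where the double mutant had 6.24 to 7.61. Sums of oocyte and maternal markers peaked in N2, and those of intestine markers in the labelled met-2 group. None of these markers was among the 71 genes. Each of these sums reached a higher value in another group than in the double mutant, so the rule left such markers little room. Nothing is read from their absence.

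**Figure D1:**
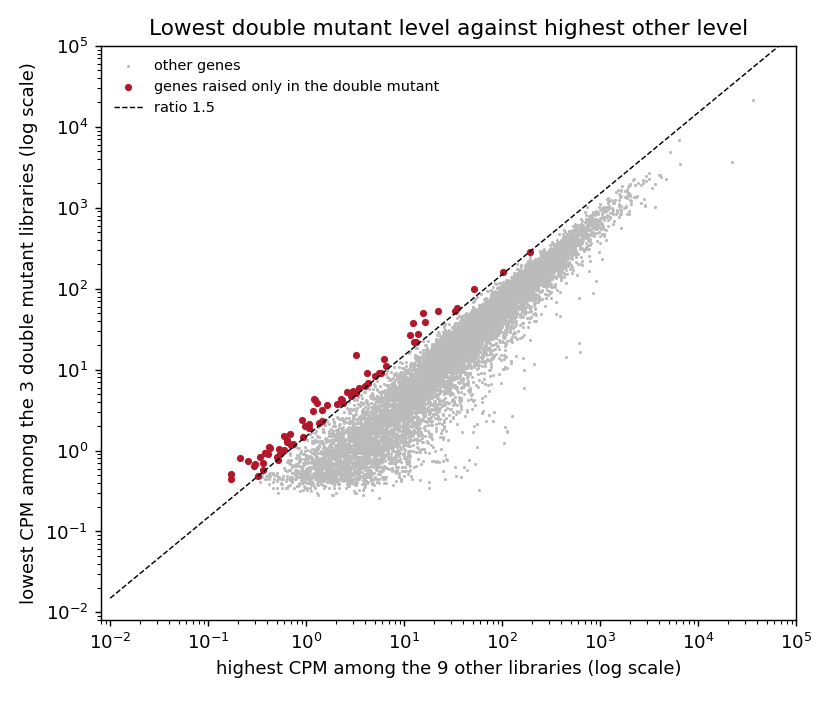
Each point is a gene with a mean of at least 0.5 CPM in the double mutant, placed by its highest CPM among the 9 other libraries (horizontal, log scale) and its lowest CPM among the 3 double mutant libraries (vertical, log scale). The 71 selected genes, in red, lie on or above the dashed line of ratio 1.5, and most of them lie at low levels.

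Most of the 71 genes had low RNA levels, also in the double mutant. Their mean in the double mutant ran from 0.535 to 302 CPM with a median of 3.97, and 55 of the 71 stayed below 10 CPM. Per kb of exon the median level in the double mutant was 3.18 CPM for the 67 genes found in the annotation, where 11462 located genes at 0.5 CPM or more had a median of 17.7 CPM per kb. The coefficient of variation over the double mutant libraries had a median of 7.52% per gene, which the rule favours, since it used their lowest value. In N2 the mean of 28 of the 71 genes was under 0.5 CPM. Relative to N2 the median log2 difference of the double mutant was 1.99 over the 71 genes, and it was -0.01 over all 14260 genes tested. Against the libraries labelled met-2 it was 2.17, beside -0.12 over all genes, and against set-25 it was 2.24, beside -0.10. By edgeR's quasi-likelihood test the double mutant was called higher than N2 in 68 of the 71, where 8.70% of all genes were so called. It was called higher than the libraries labelled met-2 in 71, where the share of all genes was 23.1%, and higher than set-25 in 70, where it was 20.5%. These 3 counts were fixed by the selection, and nothing is read from them.

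The ratio of the lowest double mutant value to the highest other value was under 2 in 39 genes, from 2 to under 3 in 26 and 3 or more in 6. Just inside the limit were E01G4.5 at 1.51, mltn-2 at 1.51, Y6G8.8 at 1.53 and C27C7.1 at 1.55. Just outside it were hsp-25 at 1.49, srd-70 at 1.48, sma-4 at 1.48 and crtc-1 at 1.47. The values ran on across the limit without a gap. The number selected depended on scaling: with library sizes scaled by TMM, which corrects for the makeup of each library, 110 genes met the rule, 70 of the 71 among them. Without the 3 libraries labelled met-2, 147 genes met it, and these included all 71.

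The enu-3 family was represented by most of its genes. These genes are named for ENU-3, a membrane protein known for its role in the outgrowth and guidance of motor axons. Of 6 family genes in the table, 5 were selected, 1 on chromosome I and 4 on chromosome III, none within 10 kb of another. The gene enu-3.5 (Y37D8A.12, chromosome III, 12878196 to 12880701) stood at 4.98, 4.33 and 6.26 CPM in double mutant libraries a, b and c, and at 0.702, 0.533 and 1.02 CPM in N2. It was at 1.19, 0.7402 and 0.626 CPM in the libraries labelled met-2 and at 0.504, 0.794 and 0.886 CPM in set-25. Every double mutant value was thus at least 3.64 times every other, and the log2 difference from N2 was 2.77 (SE 0.30). The family's highest level in the double mutant belonged to enu-3.2 (C38D4.1), with 14.7, 13.5 and 14.4 CPM there and 3.38, 1.72 and 2.66 CPM in N2. It showed 6.16, 1.71 and 1.996 CPM in the libraries labelled met-2, of which a was far above b and c, and 1.24, 2.17 and 2.19 CPM in set-25.

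In the other members of this family the double mutant was likewise above every other library. Levels of enu-3.3 (W03G9.3) were 4.36, 3.63 and 4.45 CPM in the double mutant and 0.911, 0.678 and 0.561 CPM in N2, a log2 difference of 2.51 (SE 0.20). Those of enu-3.6 (K01G5.3) were 1.601, 1.502 and 1.65 CPM and 0.475, 0.412 and 0.512 CPM, a log2 difference of 1.75 (SE 0.09). For enu-3.1 (H04D03.1), which was the family's most abundant in N2 with 4.16, 3.95 and 4.14 CPM, the double mutant held 9.37, 9.803 and 9.15 CPM, the smallest rise over N2 among the 5. The sixth gene, the pseudogene enu-3.4, stayed under the level limit with 0.278, 0.172 and 0.303 CPM in the double mutant and 0.0759, 0.0242 and 0.0731 CPM in N2, and its ratio missed the limit too. The sources do not say how reads that fit more than one copy of a family were handled, so levels of single family members are uncertain.

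**Figure D2:**
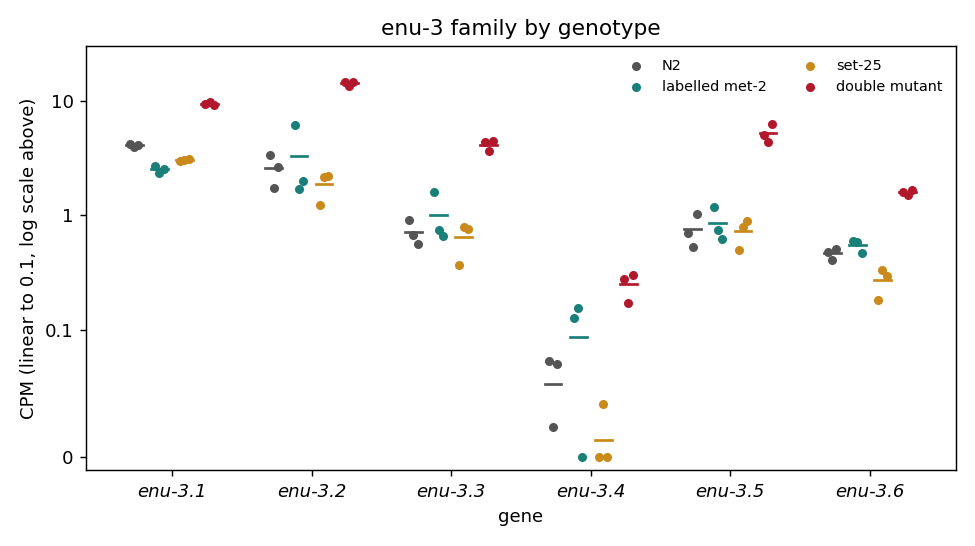
CPM (vertical, linear to 0.1 and on a log scale above) of the 6 enu-3 family genes, with a point per library and a bar at the mean of each genotype (n = 3). The double mutant points lie above every other point in all 6 genes, least clearly in enu-3.4, and library a of the labelled met-2 group is the highest of its group in the 5 selected genes.

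Argonaute genes of the small RNA pathways were also among the 71. Argonautes are the proteins that small RNAs guide to their target transcripts. The gene sago-2 (F56A6.1, chromosome I, 618160 to 621490), a worm-specific Argonaute that binds secondary small RNAs, stood at 1.004, 0.944 and 1.05 CPM in the double mutant and 0.114, 0.0726 and 0.0487 CPM in N2, with 0.382, 0.0779 and 0.117 CPM in the libraries labelled met-2 and 0.321, 0.125 and 0.0591 CPM in set-25. It overlaps eme-1 on the other strand, which averaged 27.6 CPM in the double mutant and 21.9 in N2, and whether the counts kept strands apart is not stated. The gene wago-4 (F58G1.1, chromosome II, 12919551 to 12923377), a germline Argonaute of inherited silencing, held 52.4, 53.9 and 55.7 CPM in the double mutant and 27.8, 28.5 and 33.3 CPM in N2. Its log2 difference from N2, 0.84 (SE 0.10), was far smaller than that of sago-2, 3.57 (SE 0.20). With 24.6, 16.7 and 17.7 CPM in the libraries labelled met-2 and 12.1, 20.5 and 13.9 CPM in set-25, both of these groups lay below N2.

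Of 39 tested genes of small RNA pathways, 2 were called higher in the double mutant than in N2 and 3 lower, where 8.70% and 3.34% of all genes were. The 2 higher ones are sago-2 and wago-4 themselves, so that count restates the selection. The 3 lower genes were eri-6, eri-7 and rde-11, with log2 differences of -1.02 (SE 0.04, edgeR adjusted p = 8.50e-04), -0.93 (SE 0.03, adjusted p = 6.93e-04) and -1.08 (SE 0.14, adjusted p = 0.00344). The products of eri-6 and eri-7 are joined by trans-splicing into a helicase needed for one class of endogenous small RNAs, and RDE-11 acts in the amplification of small RNAs. The median of the 39 genes was -0.09. E01G4.5 (chromosome II, 13472401 to 13473995), known as a target of endogenous small RNAs that silence it in the nucleus, had the highest level of all 71 genes. It stood at 327, 289 and 288 CPM in the double mutant and at 46.7, 55.2 and 53.03 CPM in N2. Values in between, 191, 116 and 134 CPM and 109.7, 96.3 and 83.6 CPM, were seen in the libraries labelled met-2 and in set-25.

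The gene dmd-9 (Y67D8A.3, chromosome IV, 3253261 to 3254543) encodes a DM-domain protein, of the family of transcription factors that includes Doublesex and MAB-3. It stood at 38.5, 37.3 and 42.3 CPM in the double mutant, at 9.62, 10.4 and 12.2 CPM in N2, at 5.86, 3.19 and 3.52 CPM in the libraries labelled met-2 and at 4.99, 6.56 and 5.55 CPM in set-25. N2 thus lay above set-25 and the libraries labelled met-2, and far below the double mutant. The other 7 dmd genes in the table were not selected, and the most abundant of them, dmd-7, averaged 121 ± 9.73 CPM (SD, n = 3) in the double mutant and 99.7 ± 2.60 CPM in N2. The gene lin-8 (B0454.1), whose nuclear product acts in the synMuv A group of vulval cell fate genes, was the second most abundant of the 71, with 166, 159.7 and 170.2 CPM in the double mutant and 89.4, 91.4 and 103 CPM in N2. Its log2 difference from N2 of 0.80 (SE 0.08) was the smallest of all 71. The developmental timing gene lin-42 (F47F6.1), the worm homolog of Period, held 57.99, 65.04 and 56.98 CPM in the double mutant and 30.4, 27.1 and 16.3 CPM in N2. It varied widely in set-25, with 5.998, 12.8 and 17.5 CPM, and lies over several short noncoding genes of both strands.

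Genes known mainly from other tissues were selected at low levels. From the male germline came spe-18 (F32A11.3), needed for sperm formation, and nspd-7 (Y43C5A.1), of a family of small peptides enriched in sperm. The double mutant held 0.897, 0.965 and 1.12 CPM of spe-18, where N2 held 0.418, 0.291 and 0.536, and 0.918, 0.751 and 0.792 CPM of nspd-7, where N2 held 0.114, 0.0242 and 0.195. These values for nspd-7 are 112 counts over the double mutant libraries and 15 over those of N2. Of 11 nspd genes in the table, nspd-1 and nspd-5 also passed the ratio, at 3.52 and 5.59, but averaged only 0.329 and 0.264 CPM in the double mutant. Other nspd genes averaged less there than in N2, among them nspd-9, the family's most abundant in N2, at 0.235 and 0.334 CPM. Of 27 tested sperm genes 4 were called higher in the double mutant than in N2 and 0 lower by edgeR, where 8.70% and 3.34% of all genes were, with a median of -0.05. Over this list the counts at an unadjusted p under 0.05 were 7 and 1, and the share of all genes at that limit is not given. Both selected genes are in that list, and were chosen for being higher. A list of 40 sperm markers summed to 3.20 to 3.82 CPM in the double mutant and 1.73 to 2.30 CPM in N2, with 17 and 23 of them at 0. In set-25 the sum was 2.29 to 4.78 CPM with 27 at 0, and libraries labelled met-2 had 2.07 to 3.12 CPM with 23 at 0. The part of sperm RNA in the values of spe-18 and nspd-7 was not tested.

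Chemoreceptors, the odorant and taste receptors of sensory neurons, gave 4 of the 71: srw-85, sri-62, sre-50 and sru-47. The table holds 1692 chemoreceptor genes, of which 208 were abundant enough to test. Of those, 14 were called higher in the double mutant than in N2 and 5 lower, where 8.70% and 3.34% of all genes were, with a median of -0.10. The count of 208 includes the 4 selected genes. The gene srw-85 (C25F9.1, chromosome V, 19429387 to 19431136) had the largest fitted log2 difference from N2 of all 71, 7.22 (SE 0.43). It stood at 6.13, 6.41 and 5.89 CPM in the double mutant and at 0, 0.0969 and 0.0244 CPM in N2. These are 839 counts over the double mutant libraries and 5 over those of N2, too few for that SE to be taken at its size. In the libraries labelled met-2 it showed 3.48, 0.0779 and 0.0783 CPM, so that a alone was raised, and in set-25 0.137, 0.251 and 0.118 CPM. Likewise sri-62 (F34D6.5) had 1.15, 1.16 and 1.07 CPM in the double mutant, 0.03796, 0 and 0.0731 in N2, 0.425, 0.03896 and 0.0391 in the libraries labelled met-2 and 0.0458, 0 and 0 in set-25. The receptors sre-50 and sru-47 stood at 1.15, 1.01 and 1.44 CPM and 0.833, 1.14 and 1.16 CPM in the double mutant and at 0.399, 0.339 and 0.317 CPM and 0.152, 0.363 and 0.414 CPM in N2. For sri-62, the set-25 libraries held 1 count in all and the double mutant libraries 154, a ratio of 70.8 with a 95% counting interval of 12.5 to 2814. A neighbour of sri-62, the H3K9 methyltransferase relative set-11, lies 4363 bases away and was called higher than N2 too, by 3.50 (SE 0.42, edgeR adjusted p = 0.0212). Its mean was 0.377 CPM in the double mutant, 0.438 CPM in the libraries labelled met-2 and only 0.0324 CPM in N2.

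The F-box gene fbxa-43 (T20H9.2), of a large family of adaptors for protein degradation, was the only selected gene among 269 tested F-box genes. Its level was 4.87, 3.82 and 4.61 CPM in the double mutant and 0.133, 0.1695 and 0.292 CPM in N2, a log2 difference of 4.47 (SE 0.29). In the libraries labelled met-2 it was 1.27, 0.351 and 0.196 CPM, again highest in a. Over the whole F-box list 15 genes were called higher in the double mutant than in N2 and 22 lower, where 8.70% and 3.34% of all genes were, with a median of -0.23. The yolk protein gene vit-1 (K09F5.2), normally expressed in the adult intestine, held 0.790, 0.837 and 0.699 CPM in the double mutant and 0.247, 0.0969 and 0.0731 CPM in N2. No other vitellogenin gene was selected, and the means of vit-2 to vit-6 were 0.0215 to 0.326 CPM in the double mutant and 0.0351 to 0.440 CPM in N2. All of these but vit-5 averaged less in the double mutant than in N2. The sum of the 6 vitellogenin genes was 0.955 to 2.19 CPM in the double mutant and 0.512 to 1.88 CPM in N2. The myosin light chain gene mlc-7, the adenine nucleotide carrier gene ant-1.4 and the Nudix hydrolase gene ndx-2 averaged 2.27, 1.24 and 5.23 CPM in the double mutant, with ratios of 1.99, 1.65 and 1.64. Likewise the arrestin-domain gene arrd-22 averaged 4.46 CPM, at a ratio of 1.83.

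Sequence names alone identify 45 of the 71, and these include the gene with the highest ratio. Y57G11C.51 (chromosome IV, 14773592 to 14774554) stood at 15.2, 17.4 and 16.8 CPM in the double mutant, at 3.21, 2.204 and 2.92 CPM in N2, at 2.72, 1.36 and 1.33 CPM in the libraries labelled met-2 and at 1.37, 1.296 and 3.13 CPM in set-25. All 3 double mutant values were at least 4.74 times the highest other one. It overlaps Y57G11C.36 on the same strand, which averaged 16.9 CPM in the double mutant and 21.98 CPM in N2. Next by ratio among coding genes known by sequence name alone were C55C3.3, with 4.19, 4.93 and 5.38 CPM in the double mutant and 0.512, 0.702 and 0.707 CPM in N2, and F15D4.5, with 53.5, 49.7 and 55.2 CPM and 10.8, 10.8 and 12.1 CPM. F15D4.5 stood well below that in the other groups too, with 15.6, 8.57 and 8.84 CPM in the libraries labelled met-2 and 14.7, 14.6 and 12.4 CPM in set-25. F28F8.7, Y116F11A.1 and W04B5.3 averaged 27.9, 56.5 and 3.21 CPM in the double mutant at ratios of 2.36, 2.41 and 2.65. The noncoding RNA gene CD4.10 averaged 2.67 CPM at a ratio of 2.67. Of the 4 genes with no place in the annotation, Y48G1BL.6, Y48G1BL.4, Y102A5D.1 and Y48G1BM.5, the highest ratio was that of Y48G1BL.6, with 0.534, 0.558 and 0.512 CPM in the double mutant and 0.171, 0.145 and 0.0731 CPM in N2.

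Pseudogenes, copies of genes that have lost an intact reading frame, made up 12 of the 67 located genes, or 17.9%. Among 13237 located genes at 0.5 CPM or more in any genotype the share was 2.95%. Over genes averaging 0.5 to 10 CPM in the double mutant, 9 of 51 selected genes and 5.90% of 4237 genes in all were pseudogenes. The most abundant was F39E9.7, with 121, 99.5 and 103 CPM in the double mutant and 24.7, 23.8 and 21.4 CPM in N2. Y54G2A.21 held 39.2, 40.5 and 42.6 CPM and 7.04, 6.17 and 7.19 CPM, with 16.39, 7.83 and 7.75 CPM in the libraries labelled met-2. C07D8.2 had the second highest ratio of all 71, 3.90, from few reads: 117 counts in the double mutant libraries together and 11 in those of N2. Further pseudogenes were puf-10 and snpc-3.3, named after a family of RNA-binding proteins and after a subunit of the complex that starts snRNA transcription, with 3.54, 3.15 and 3.63 CPM and 0.577, 0.601 and 0.675 CPM in the double mutant.

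**Figure D3:**
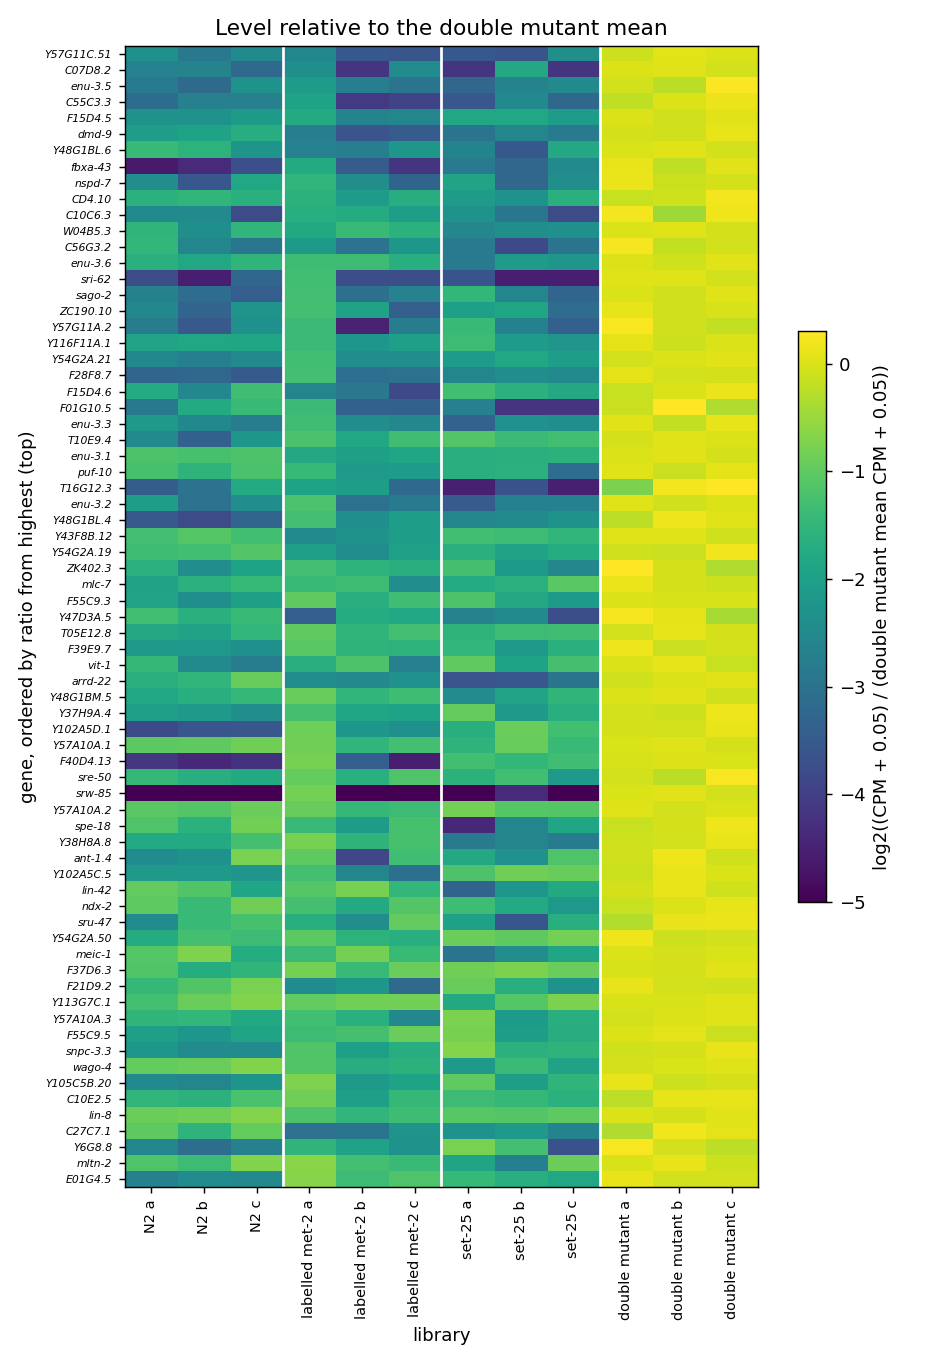
Level of each of the 71 genes (rows, by falling ratio) in each of the 12 libraries (columns), as the log2 of CPM + 0.05 over the double mutant mean + 0.05. Values below -5 are drawn at -5. The double mutant columns are bright throughout, as each row is set against their mean, and even in most rows, least so in T16G12.3. The column of labelled met-2 library a is brighter than those of b and c in most rows.

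The place of these genes on the chromosomes was not used to choose them. With each autosome cut into 3 equal lengths, 55 of 67 located genes, or 82.1%, lay in the outer parts, the arms, where 50.3% of the 13237 expressed genes lay. The central parts held 7 (10.4%), against 35.1% of expressed genes, and the X chromosome held 5 (7.46%), against 14.7%. Among genes averaging 0.5 to 10 CPM in the double mutant the share on arms was 78.4% of 51 selected genes and 52.9% of 4237 genes in all. With each autosome cut into 4 equal lengths and the outer ones taken as arms, 70.1% of the selected and 35.1% of the expressed genes lay there. Chromosome V held 16 of the 67 and chromosomes I and III held 10 each. The exon length of the 67 had a median of 1236 bases, beside 1431 in expressed genes.

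**Figure D4:**
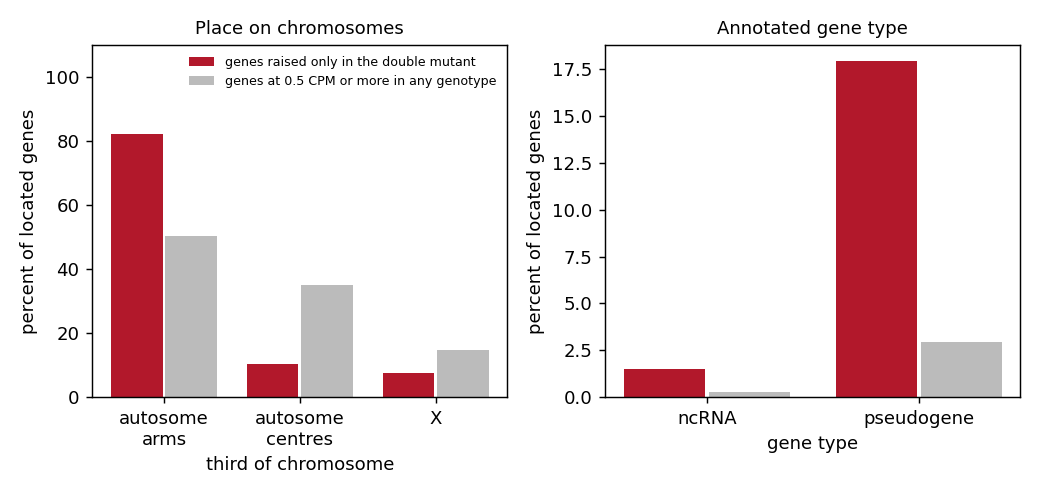
Percent of the 67 located selected genes (red) and of the 13237 located genes at 0.5 CPM or more in any genotype (grey) by place on the chromosome (left) and for pseudogenes and noncoding RNA genes (right). Red exceeds grey for autosome arms, 82.1% against 50.3%, and for pseudogenes, 17.9% against 2.95%.

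Part of the selected genes lay near each other, in some cases with unselected genes between them. Of the 67, 14 lay within 10 kb of another, in 6 groups of 2 or 3, and the share expected of other genes was not computed. The longest group, on chromosome IV (2893814 to 2919784), held Y54G2A.19, the pseudogene Y54G2A.21 and Y54G2A.50, with double mutant means of 5.79, 40.8 and 9.63 CPM. On chromosome II (12134026 to 12151879), the pseudogene Y57A10A.1, Y57A10A.2 and the pseudogene Y57A10A.3 lay on one strand, with 22.4, 23.1 and 5.43 CPM. F15D4.5 and F15D4.6 lay together on the same chromosome (13245376 to 13250063), and C07D8.2 and C56G3.2 on the X chromosome (7362082 to 7365962). Pairs on one strand were also formed by F55C9.3 and F55C9.5 on chromosome V, while puf-10 and snpc-3.3 on chromosome I lay on opposite strands. Neighbours are not independent observations where a transcript runs through both. No selected gene overlapped another, but 20 overlapped some annotated gene, 8 of them one that was counted.

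Genes next to the selected ones were looked at in the same fit. The rule was applied to these neighbours too and all of them failed it, so their counts are a description. Some overlap a selected gene: B0391.10, called higher, overlaps F28F8.7 on the other strand. Within 10 kb of the 67 genes lay 206 tested genes that were not selected. Of these 30 (14.6%) were called higher in the double mutant than in N2 and 5 (2.43%) lower, where 8.70% and 3.34% of all tested genes were. Their median log2 difference was 0.01. The 30 lay near 20 of the 67 genes. Among them were E01G4.7, the pseudogene 3476 bases from E01G4.5, at 9.92 ± 0.578 CPM (SD, n = 3) in the double mutant and 3.09 ± 0.126 CPM in N2, and the pseudogene Y57A10A.7, at 11.3 ± 0.289 CPM and 4.31 ± 0.193 CPM. These calls compare the double mutant with N2 only. In E01G4.7 and Y57A10A.7 the double mutant mean was also above those of set-25 and the libraries labelled met-2. In others of the 30 it was below the labelled met-2 mean. T16G12.1 averaged 7.918 CPM in the double mutant and 40.06 CPM in the libraries labelled met-2. For B0393.5 these means were 51.27 and 191.1 CPM. The 30 are thus not all highest in the double mutant. Whether the share called higher differs from that near other genes was not tested.

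Differences among N2, set-25 and the libraries labelled met-2 are given as a description, since the rule used the highest value of these same 9 libraries. The comparisons share the N2 libraries. Calls of the main fit are counted beside the share over all genes. For other scalings and refits that share is not given, and their counts show only how the calls move. No p-value is given for a selected gene. Against N2, set-25 was called lower in 20 of the 71 genes and higher in 4 (edgeR, adjusted p under 0.05), where 21.6% and 24.2% of all genes were. The median log2 difference was -0.35, beside 0.07 over all genes. With library totals alone the calls were 10 lower and 11 higher, and the median over all genes was 0.37, so the balance of directions follows the scaling. In a fit without the libraries labelled met-2, 19 were lower and 8 higher. The libraries labelled met-2 were called lower than N2 in 12 genes and higher in 7, where 29.6% and 35.2% of all genes were. Their median was -0.11, beside 0.05, and with totals the calls were 10 and 13, at a median of 0.32 over all genes. Between the groups labelled met-2 and set-25, 7 of the 71 were called higher in the libraries labelled met-2 than in set-25 and 3 lower, where 15.5% and 9.28% of all genes were.

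Some of the 71 genes lay below N2 in set-25 or in the libraries labelled met-2. In set-25 the largest calls were in T16G12.3, with 1 count in set-25 and 19 in N2 (ratio of N2 to set-25 8.82, 95% counting interval 1.403 to 367), and in arrd-22, spe-18 and Y47D3A.5. The log2 difference was -2.46 (SE 0.30) for arrd-22 and -2.13 (SE 0.68) for spe-18. In the libraries labelled met-2 they were in C27C7.1, -1.84 (SE 0.30), F21D9.2, -1.81 (SE 0.35), F15D4.6, -1.71 (SE 0.50), and dmd-9, -1.63 (SE 0.29). For wago-4 the set-25 mutant differed from N2 by -1.24 (SE 0.28) and the group labelled met-2 by -0.87 (SE 0.20). For lin-8 these values were -0.57 (SE 0.08) and -0.80 (SE 0.12).

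Others stood between N2 and the double mutant. In set-25 all 4 genes called higher than N2 were F40D4.13, 2.68 (SE 0.08), Y102A5D.1, 2.52 (SE 0.26), T10E9.4, 1.31 (SE 0.35), and E01G4.5, 0.60 (SE 0.13). F40D4.13 stood at 4.53, 3.97 and 4.49 CPM in set-25, 11.1, 11.6 and 11.2 CPM in the double mutant and 0.588, 0.484 and 0.561 CPM in N2. The set-25 and N2 values did not overlap, while the rule itself kept the double mutant apart from both. In the libraries labelled met-2 the largest of the 7 increases were in srw-85, Y102A5D.1, F40D4.13 and Y48G1BL.4. The values of srw-85 and F40D4.13 rest on library a: their values in a, b and c were 3.48, 0.0779 and 0.0783 CPM and 6.498, 1.01 and 0.4305 CPM. For Y102A5D.1 the log2 difference was 2.12 (SE 0.47) and the values were 1.06, 0.3896 and 0.352 CPM, where N2 had 0.0949, 0.121 and 0.122 CPM. Y48G1BL.4 gave 1.81 (SE 0.35). Without library a the labelled met-2 group was called higher in 3 genes and lower in 17, and the share over all genes in that fit is not given.

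Library a of the labelled met-2 group stood apart from b and c across these genes. It was the highest of its group in 54 of the 71, where b was highest in 7 and c in 10, and the same share over all genes was not computed. It was also the highest of all 9 other libraries in 31 of the 71 (43.7%), where it was the highest in 13.4% of the other genes at 0.5 CPM or more in the double mutant. As a median over the 71 genes, library a reached 38.3% of the double mutant mean, b reached 21.5%, c 22.7%, the set-25 libraries 22.4 to 26.3% and the N2 libraries 21.7 to 26.4%. On the way from the mean of b and c to the double mutant mean, a lay at a median of 20.04%. It also held the least met-2 RNA of its group, 232 CPM, and the least set-25 RNA, 83.6 CPM where b and c had 119 and 126. Without library a, 108 genes met the rule, all 71 among them. What sets this library apart was not tested.

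**Figure D5:**
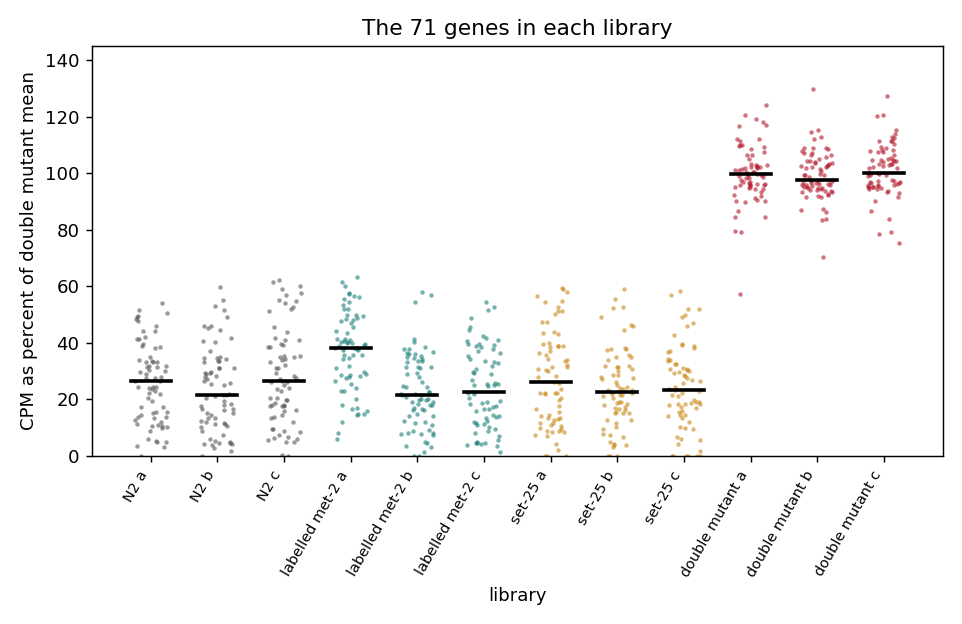
CPM of the 71 genes in each library as a percent of the gene's double mutant mean, with a point per gene and a black bar at the median. The bars of the 9 other libraries lie between 21.5 and 38.3%, the highest of them that of labelled met-2 library a.

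The table of repeat families, counted apart from genes, was read by the same rule. Of 392 families 220 reached 0.5 CPM in the double mutant and 3 met it: the DNA transposon family CEMUDR1 and the retrotransposon families CER7-I_CE and CER16-2-I_CE. CEMUDR1 stood at 304, 311 and 319 CPM in the double mutant and at 76.1, 73.6 and 72.99 CPM in N2. In set-25 it was at 151, 156 and 147 CPM and in the libraries labelled met-2 at 143, 93.4 and 84.3 CPM, again highest in a. CER7-I_CE held 21.4, 20.4 and 21.4 CPM in the double mutant, 12.5, 9.52 and 12.5 CPM in N2 and 7.92, 6.27 and 5.198 CPM in set-25.

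Of 28 lists of pathways and gene families, 24 held none of the 71 genes. Among them were the 26 tested genes of H3K9 methylation and heterochromatin, of which set-11 and lin-13 were called higher in the double mutant than in N2 and met-2 and set-25 lower. In the list of 26 double-strand break repair genes 0 were called higher and 1 lower by edgeR, where 8.70% and 3.34% of all genes were, with a median of -0.24. In that of 13 genes of R-loop processing, where R-loops are hybrids of RNA with its DNA template, the counts were 0 and 1 and the median was -0.23. At an unadjusted p under 0.05 the counts were 0 and 9 for the repair genes and 0 and 5 for R-loop processing. The share of all genes at that limit is not given, so nothing is read from these unadjusted counts.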

How the data were processed

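The authors deposited 2 tables of raw counts, per gene and per repeat family, all whole numbers and unscaled. The deposited tables also have a width column of other values, a length in bases, which entered no result. Columns name genotypes and letters, and were assigned to genotypes by these names. The 5 µg of RNA per library were depleted of ribosomal RNA, per the labels' protocols. The sources used here do not give the aligner, counter, strand setting, genome build or treatment of reads with several places. Positions, gene types and exon lengths come from the Ensembl annotation of WBcel235, in which 27163 of 27904 genes and 67 of the 71 were found by sequence name, and further symbols from RefSeq. No sequences are shown, as no genome was used here.

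Genes were fitted with edgeR 4.0.16 in R 4.3.3 (quasi-likelihood, robust, TMM, its filter for low counts) over all 12 libraries. Two-sided p-values were adjusted by Benjamini-Hochberg over 14260 genes, with 0.05 as threshold. The SE of a log2 difference is from replicate log2 CPM with a prior count of 2, not from the fit that gave the difference. It can be too small where a group has few counts. P-values measure the spread between libraries, which may be technical. Intervals cover counting error only. The fit was tested on simulated data. DESeq2 1.42.0, other scalings, filters, thinning and leaving out libraries were the alternatives. The genes, lists and tests were chosen with earlier results of these data known. Named genes are the 16 of largest ratio (with 0.1 CPM added to both values), the 8 most abundant, members of the gene lists and of clusters within 10 kb, up to 4 calls per contrast and direction, and 4 on each side of the limit. Others were named after their values were seen: further genes of the same families, mlc-7, ant-1.4, ndx-2, puf-10, snpc-3.3 and neighbouring genes.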

Additional observations from a re-analysis of the deposited data

Results flagged for a closer look

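Between the libraries labelled met-2 and set-25, 10 of the 71 genes were called different by edgeR, 7 higher and 3 lower, where 15.5% and 9.28% of all genes were. The members' share is no higher than that of all genes, and the rule used the highest value of these libraries, so the differences are a description. The log2 difference, labelled met-2 minus set-25, was 1.65 for Y38H8A.8, 1.27 for meic-1, 1.24 for lin-42, 1.07 for arrd-22, 1.04 for enu-3.6, 0.90 for W04B5.3 and 0.65 for E01G4.5. It was -1.65 for F15D4.6, -1.13 for Y102A5C.5 and -0.92 for Y43F8B.12. The pseudogene Y38H8A.8 did not overlap between the groups, with 5.05, 2.96 and 3.68 CPM in the libraries labelled met-2 and 1.19, 1.42 and 1.18 CPM in set-25. The timing gene lin-42 showed 28.2, 34.7 and 21.2 CPM and 5.998, 12.8 and 17.5 CPM, and these groups did not overlap either. These calls depend on which libraries enter the fit: in an edgeR fit of only the 6 libraries compared, 0 of the 50 selected genes tested were called, and 3 of all 13402 genes were. Of the 50, 9 had an unadjusted p under 0.05 in that fit, and the share of all genes at that limit is not given. DESeq2 over all 12 libraries called 12. Without labelled met-2 library a, 1 of the 71 was called higher and 8 lower. Without its library b 1 was called in all, and without set-25 library a or b 4 were. Shares over all genes are not given for DESeq2 or for the fits that leave out a library.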

How the results depend on the processing

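The number of genes selected moved with the limits and the scaling. It was 32 at a ratio of 2, 143 at a ratio looser than 1.5, 110 with TMM library sizes, 114 with DESeq2 size factors, 147 without the 3 libraries labelled met-2, and 71 to 108 without 1 library. The sign of the median log2 difference of the double mutant is fixed by the rule. From N2 its size was 2.53 for genes of ratio 2 or more and 1.91 to 2.06 without 1 library. From set-25 it was 1.95 with library totals, 2.87 for genes of ratio 2 or more and 2.12 to 2.30 without 1 library, and from the libraries labelled met-2 it was 2.08 to 2.45. Calls between set-25 and N2, 24 in all, numbered 13 in a fit of only these 6 libraries and 18 to 22 without 1 library. In that fit of 6 libraries 53 of the 71 genes passed the filter, and 4043 of all 12884 genes tested were called. For the fits that leave out a library or the filter, calls over all genes are not given. Calls between the labelled met-2 libraries and N2, 19 in all, were 16 to 21. Calls between the labelled met-2 libraries and set-25, 10 in all, were 5 with no filter on low counts and 12 by DESeq2 over all libraries. They were 1 to 11 without 1 library, the lowest without labelled met-2 library b. An edgeR fit of only 6 libraries gave 0, where 3 of all 13402 genes were called. At an unadjusted p under 0.05 that fit gave 9, and the share of all genes at that limit is not given. The share on arms was 70.1% with autosomes cut into 4 lengths. Of repeats of single calls 492 kept their side of the threshold, 160 missed it and 0 turned direction. The causes were not tested. No paired analysis was possible because the columns carry letters and the labels numbers, with nothing to join them. Low depth limits genes under 1 CPM, most of all in set-25, the shallowest group.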

Other observations

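With each other group taken as the raised one, the same rule selected 6 genes for N2, 15 for set-25 and 192 for the group labelled met-2. The mirrored rule, with the highest double mutant value at most 1/1.5 of the lowest other value, selected 60 genes as lowest in the double mutant. A further 18 genes passed the ratio for the double mutant but averaged 0.1 to 0.5 CPM there, nspd-1 and nspd-5 among them.

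Of the 76 genes added when the libraries labelled met-2 are left out, 5 were pseudogenes. Some are abundant: mlt-11 averaged 882 CPM in the double mutant, 795 in the libraries labelled met-2, 473 in N2 and 280 in set-25, and the timing gene hbl-1 averaged 487, 368, 199 and 217 CPM.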
